A study of Mus musculus with 4 samples.

Results

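Wnt and beta-catenin target genes were followed in B16-F10 cells, a mouse melanoma line, with and without recombinant Cdh1. The members were 10 listed genes: Axin2, Lef1, Tcf7, Nkd1, Sp5, Rnf43, Znrf3, Lgr5, Apcdd1 and Myc. Every non-control probe whose RefSeq accession belonged to one of these genes was taken, which gave 16 probes of 56605 on the array and 10 genes of 23462 with a RefSeq match. Of the 10 genes, 6 had a single probe, and each of the 16 probes was printed in 1 spot. The rule uses accessions and not signal, although the gene list was drawn up with earlier results of these data known.

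Total RNA was hybridised to 4 one-colour arrays on 1 slide. The 2 control arrays came from untreated cultures and the 2 Cdh1 arrays from cultures given 100 ng/mL of the recombinant protein for 24 h, all in medium with 10% fetal bovine serum. The cultures formed 2 independent sets, each of 1 control and 1 Cdh1 culture, and all came from a single cell line with no engineered allele in the labels. Cdh1 is the mouse symbol of E-cadherin, a calcium-dependent adhesion protein of epithelial cells. The labels give neither the species nor the construct of the protein.

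When no Wnt ligand is bound, a cytoplasmic complex built on Axin and Apc marks beta-catenin for degradation. Wnt binding to a Frizzled receptor and Lrp5 or Lrp6 stops this, so that beta-catenin enters the nucleus, binds TCF/LEF factors and switches on target genes. Several of these targets are brakes on the pathway itself, which makes them widely used as readouts of its activity. Beta-catenin is also the cytoplasmic partner of E-cadherin at cell junctions, and in melanocytes the pathway acts on Mitf, the master regulator of the lineage.

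The promoters of 2 members are shown because TCF/LEF proteins bind DNA at a short core motif, and because Axin2 is the member whose signal fell most between the culture sets. The motif was searched as CTTTGAA and CTTTGAT on both strands, in windows of 300 bases from 250 before to 50 after each transcript start (RefSeq, GRCm38.p6). Windows of 6 members were searched, 11 windows in all, belonging to Axin2, Lef1, Tcf7, Nkd1, Sp5 and Rnf43. No window was available for Myc, Znrf3, Lgr5 or Apcdd1. Lef1, Tcf7 and Rnf43 each had more than 1 window, and windows of Lef1 overlapped in part, so the 11 are not independent. The motif was present in 1 of the 11, against 8.65% of 32851 windows of all genes. That window was the one of Sp5, where CTTTGAT had its first base at -104, counted from the start. The 250 bases before the start are printed 5′ to 3′ on the plus strand, with the motif in capitals. The Axin2 stretch lies at chr11:108920099-108920348 and has a GC content of 69.2%, and the Sp5 stretch lies at chr2:70474673-70474922 with a GC content of 46%.
Axin2: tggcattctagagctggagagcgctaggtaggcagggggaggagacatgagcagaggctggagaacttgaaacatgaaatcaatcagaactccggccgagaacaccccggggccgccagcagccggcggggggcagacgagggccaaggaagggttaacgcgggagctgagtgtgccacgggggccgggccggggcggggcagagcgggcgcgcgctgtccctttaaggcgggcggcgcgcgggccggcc
Sp5: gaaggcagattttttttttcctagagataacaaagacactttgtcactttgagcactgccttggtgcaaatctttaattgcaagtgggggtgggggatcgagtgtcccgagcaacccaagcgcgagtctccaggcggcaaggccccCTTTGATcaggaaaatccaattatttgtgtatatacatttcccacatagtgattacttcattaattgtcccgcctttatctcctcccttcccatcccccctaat
A match is a description of letters and not evidence of binding, and its absence says only that these letters are not in the window.

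Only 3 of the 10 target genes were measurable in these cells. Axin2, Znrf3 and Myc each had a probe well above background on all 4 arrays, which held for 6 of the 16 probes in total. The other 7 genes had none, and 9 of the 16 probes were not well above background on any array. Signals are given as processed intensity or as log2 relative to the array's 75th percentile, which was an intensity of 568.71 to 623.22. The lowest intensity of a probe well above background was 10.4 and 9.38 on the control and Cdh1 arrays of set 1, and 9.5 and 12.7 on those of set 2.

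The dim members are described by role. Lef1 and Tcf7 are DNA-binding partners of beta-catenin. The Lef1 probe (NM_010703) had intensities of 6.12 (control) and 9.19 (Cdh1) in set 1, and of 3.93 and 4.27 in set 2, and was not well above background on any array. Of the 3 Tcf7 probes, A_52_P244702 (NM_009331) gave 12.4, 22.7, 8.73 and 12.4 in the same order and was well above background in Cdh1 set 1 alone. The 2 others (NM_001313981) ranged from 2.33 to 9 and were not well above background on any array. A single array of 4 gives no group in which Tcf7 was measured, so it was not tested.

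Nkd1, which binds Dishevelled and damps the signal, and Apcdd1, a membrane inhibitor of Wnt reception, were at the bottom of the intensity range. The Nkd1 probe (NM_027280) gave 2.16 to 2.87 over the 4 arrays and the Apcdd1 probe (NM_133237) 2.06 to 2.74. Sp5, a zinc finger transcription factor induced by beta-catenin, gave 2.21 to 3 (NM_022435). The Nkd1 spot lies in row 368, within the last 24 of 384 rows, which were left out in 1 of the alternatives.

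Rnf43 and Lgr5 act on Frizzled turnover: Rnf43 is a ubiquitin ligase that removes the receptor, and Lgr5 binds the R-spondins that hold such ligases back. The Rnf43 probe (NM_172448) gave 9.7 in control set 1 and 2.59 to 3.12 on the 3 other arrays, with no array well above background. The Lgr5 probe (NM_010195) gave 3.74 to 6.91. For these 7 genes the arrays set only a ceiling, and no fold change is given.

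**Figure D1:**
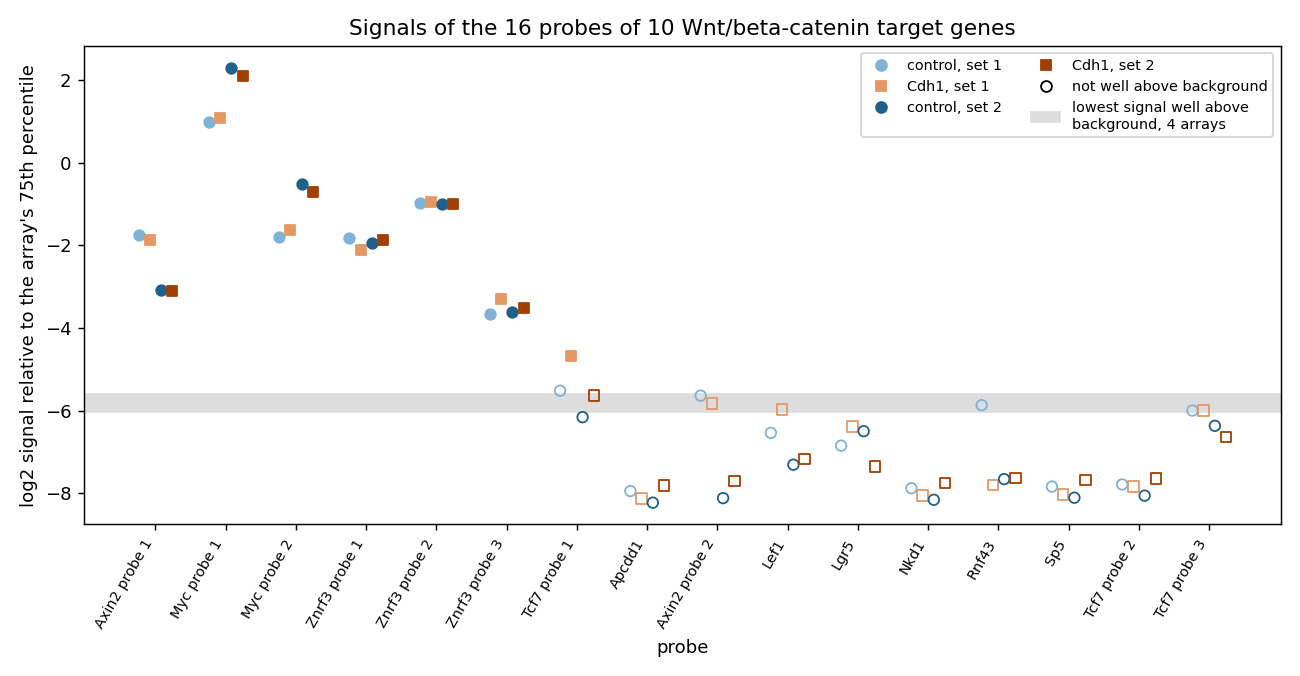
Signal of each of the 16 probes (x axis) on each of the 4 arrays (y axis, log2 relative to the array's 75th percentile). Filled symbols are well above background, open symbols are not, circles are control and squares Cdh1 arrays, and the grey band spans the lowest signals well above background (-6.04 to -5.60). Axin2 probe 1 is lower and both Myc probes are higher in set 2, the 3 Znrf3 probes are level, and the remaining probes lie near or below the band except Tcf7 probe 1 in Cdh1 set 1.

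The first comparison was Cdh1 against control, which addresses the study's question of which transcripts responded to the protein. None of the 6 tested member probes passed the test for a Cdh1 difference. Within a set, Cdh1 minus control ran from -0.29 (Znrf3 A_52_P234039, set 1) to 0.38 (Znrf3 A_66_P136072, set 1). Axin2, the scaffold of the destruction complex that is itself induced by beta-catenin, was measured by A_52_P54176 (NM_015732). Its log2 signals were -1.75 in control and -1.88 in Cdh1 of set 1, and -3.09 and -3.11 in set 2. The treated and untreated arrays of Axin2 overlapped, since each treated value lay beside the control value of its own set. Averaged over the sets, untreated cells had -2.42 ± 0.94 and treated cells -2.49 ± 0.87 (SD, n = 2). The mean Cdh1 minus control difference of Axin2 was -0.07, with an SE of 0.65 that includes the difference between the sets (limma adjusted p 1).

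Myc, a transcription factor that drives growth and a classic beta-catenin target, had 2 probes (NM_010849). The signals of A_52_P108346 were 0.99 in control and 1.08 in Cdh1 of set 1, and 2.30 and 2.11 in set 2. Those of A_52_P278549 were -1.79 and -1.62 in set 1, and -0.51 and -0.71 in set 2. On both Myc probes the Cdh1 array was slightly higher in set 1 and slightly lower in set 2, so the groups overlapped. The mean differences were -0.05 with an SE of 0.60 and -0.01 with an SE of 0.57 (limma adjusted p 1 for each).

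Znrf3, a ubiquitin ligase of the same family as Rnf43, had 3 probes. The brightest, A_65_P09639 (NM_001290501), gave -0.98 and -0.94 in control and Cdh1 of set 1, and -0.99 and -1.01 in set 2. On average this probe moved by 0.01, with an SE of 0.10 (limma adjusted p 1). The 2 dimmer probes went opposite ways: A_52_P234039 (NM_001290501) gave a mean difference of -0.12, and A_66_P136072 (NM_001080924) gave 0.24. The latter was the only member probe whose treated arrays both lay above both control arrays, at -3.29 and -3.51 against -3.66 and -3.61. Such a separation was seen in 1 of 6 member probes and in 18.1% of all 32568 tested probes. Its adjusted p was 1 (limma), and the brightest Znrf3 probe showed no such separation.

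At an adjusted p under 0.05, 0 of 6 member probes were called (limma with Benjamini-Hochberg adjustment over 32568 probes), against 0% of all tested probes. At an unadjusted p under 0.05 the number was also 0 of 6, against 561 probes or 1.72% of all. With the set as a replicate block, which takes the set difference out of the error, 0 of 6 reached that unadjusted level and 0 were called. The 95% interval of the Axin2 difference narrowed from -1.89 to 1.75 without the block to -0.29 to 0.14 with it. For the brighter Myc probe the interval went from -1.73 to 1.63 to -0.37 to 0.27, and for the brightest Znrf3 probe from -0.28 to 0.29 to -0.19 to 0.20. The blocked intervals, from 4 arrays with 2.97 degrees of freedom, therefore reach down to -0.37 and up to 0.27 on these 3 probes. The blocked intervals of the dimmer probes were wider. They ran from -0.41 to 0.39 for Myc A_52_P278549, from -0.49 to 0.26 for Znrf3 A_52_P234039 and from -0.09 to 0.56 for Znrf3 A_66_P136072.

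**Figure D2:**
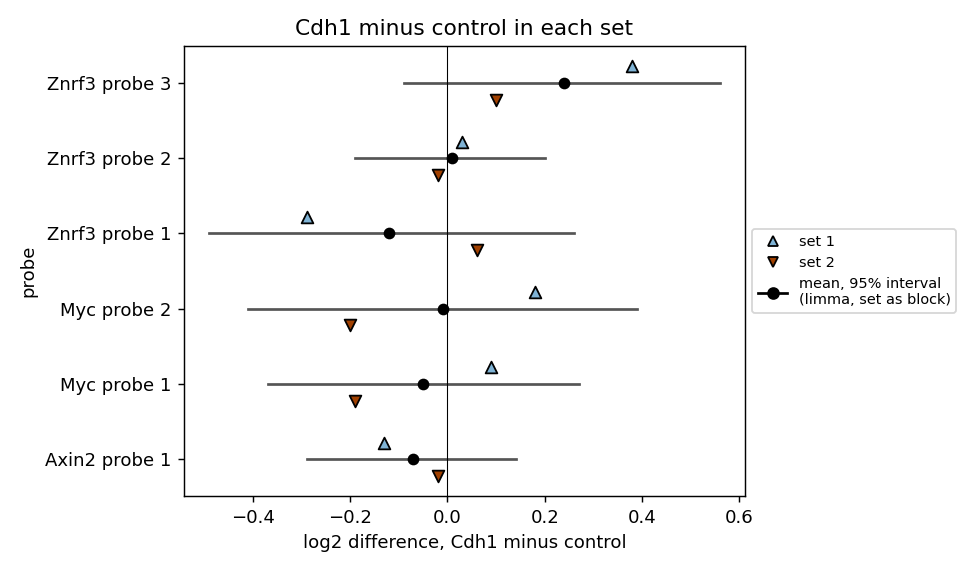
Cdh1 minus control (x axis, log2) for the 6 member probes well above background on all 4 arrays (y axis). Triangles are the differences within set 1 (up) and set 2 (down), black points their mean, and bars the 95% interval from limma with the set as a block. All 6 bars cross 0, and the triangles of a probe lie on the same side of 0 for Axin2 probe 1 and Znrf3 probe 3 only (probes are numbered as A_52_P54176 for Axin2, A_52_P108346 and A_52_P278549 for Myc, and A_52_P234039, A_65_P09639 and A_66_P136072 for Znrf3).

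The second comparison was set 2 against set 1, which asks how far the members differed between the 2 independent culture sets. Axin2 fell and Myc rose in set 2, in treated and untreated cells alike, while Znrf3 did not pass the test. Axin2 had intensities of 169 and 156 in control and Cdh1 of set 1, and of 73.2 and 71.4 in set 2. The sets did not overlap, and the arrays of a set were nearly equal. The log2 difference was -1.34 in untreated and -1.23 in treated cells. Its mean was -1.28 with an SE of 0.07, a 2.43-fold fall (limma adjusted p 0.0078). The 2 arrays of a set were its control and its Cdh1 culture. The SEs and p-values between the sets therefore measure spread within a set, and not how far further culture sets would vary. The second Axin2 probe, A_66_P134405, gave 11.4 and 10.1 in set 1 and 2.25 and 2.94 in set 2. It was not well above background on any array, so it gives no fold change.

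Myc moved in the opposite direction. The intensities of A_52_P108346 were 1130 and 1220 in control and Cdh1 of set 1, and 3070 and 2660 in set 2. Those of A_52_P278549 were 164 and 188 in set 1, and 436 and 376 in set 2. On both Myc probes every set 2 array was above every set 1 array. The log2 differences were 1.17 with an SE of 0.09 and 1.09 with an SE of 0.11 (limma adjusted p 0.0121 and 0.0167), rises of 2.25-fold and 2.13-fold. For A_52_P108346 the difference was 1.31 in untreated and 1.03 in treated cells, and for A_52_P278549 it was 1.28 and 0.90.

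The 3 Znrf3 probes differed by -0.04, 0.06 and -0.09 between the sets, with SEs of 0.05, 0.12 and 0.15 (limma adjusted p 0.606, 0.749 and 0.697). The 95% interval of the brightest Znrf3 probe was -0.19 to 0.11, so a change of the size seen for Axin2 or Myc lay outside it.

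Called between the sets were 3 of 6 member probes, belonging to 2 genes, against 15.5% of all 32955 tested probes (6.82% higher and 8.64% lower in set 2). At an unadjusted p under 0.05 the number was also 3 of 6, against 36.6% of all, and with a fold of at least 2 besides the adjusted p it was 3 of 6 against 3.06%. By the brightest probe of each gene, 2 of 3 tested members were called, against 19% of 14648 genes (7.53% higher and 11.5% lower). The sets did not overlap for 4 of 6 member probes, against 67.6% of all. A difference larger than that of Axin2 was seen in 2.33% of tested probes, and larger than those of the Myc probes in 2.80% and 3.24%. Each member probe sat in a single spot, so spot error was read from probes printed 10 times each. Their median SD of log2 intensity within an array was 0.139 to 0.164 at log2 intensities of 5 to 8 and 0.058 to 0.073 at 8 to 12, over 6 to 10 probes.

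The calls on Axin2 and Myc rested on having all 4 arrays: leaving out any 1 of the 4 (either control or either Cdh1 array) gave limma adjusted p-values of 0.0543 to 0.0627 for Axin2 and 0.0541 to 0.0876 for the Myc probes, with differences of -1.35 to -1.22 and 0.99 to 1.27. Without the filter on dim probes the adjusted p-values (limma) were 0.0762, 0.0916 and 0.106, with the treatment as a block the dimmer Myc probe was at 0.0506, and normexp background correction, which adds an offset, shrank the Axin2 difference to -0.81.

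**Figure D3:**
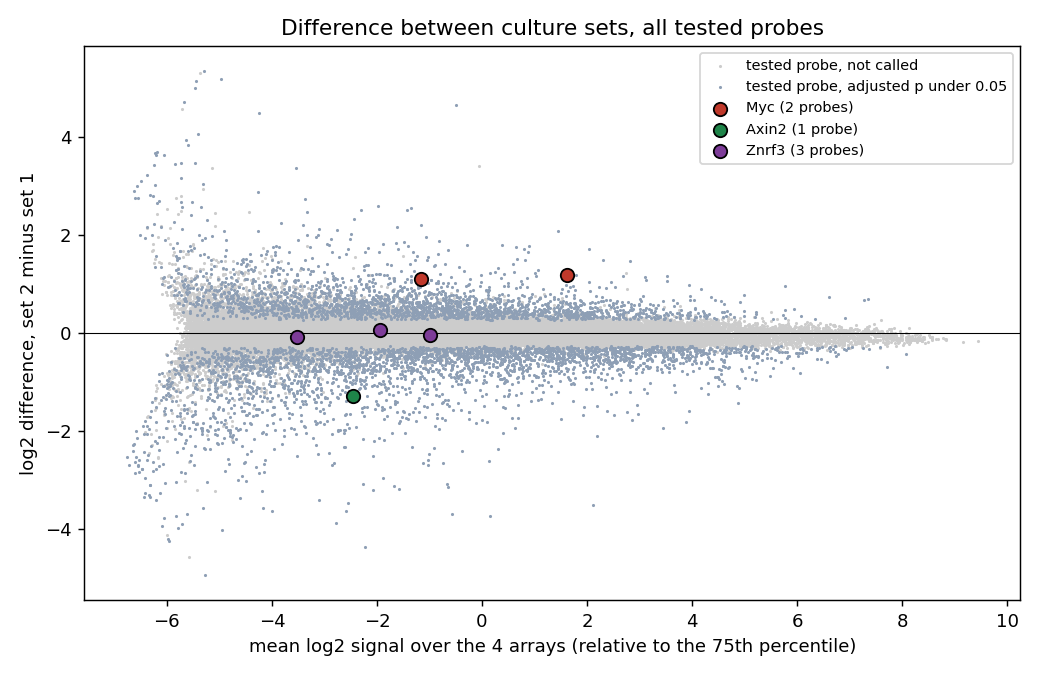
Difference between the culture sets (y axis, log2, set 2 minus set 1) against mean signal (x axis, log2 relative to the 75th percentile) for all 32955 tested probes, with called probes in blue-grey. Both Myc probes lie above the bulk at 1.17 and 1.09, the measured Axin2 probe lies below it at -1.28, and the 3 Znrf3 probes lie within 0.09 of 0.

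The rest of the Wnt pathway was read from 10 lists of 128 genes, each gene by its brightest tested probe. For Cdh1 against control 0 of 93 tested genes were called (limma, adjusted p), as were 0% of all genes, and the median difference was -0.00808 against -0.0143 over all genes. The highest list value was 0.89 for Ascl2, named because it was the extreme. For set 2 against set 1, 28 of 95 were called, 13 higher and 15 lower, against 19% of all genes. Lower or higher below means set 2 relative to set 1, on the log2 scale.

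Among the 19 Wnt ligands, 8 were tested and 3 called. Wnt9a fell by 1.09 and Wnt5b by 0.70, while Wnt6 rose by 1.04 (limma adjusted p 0.015, 0.0127 and 0.0312). The second Wnt5b probe gave -0.51 and was not called. Wnt1 differed by -0.02 and did not pass. With normexp the differences were smaller, at -0.72 for Wnt9a and 0.50 for Wnt6. Of 2 genes needed for ligand secretion, Porcn, which attaches the lipid that Wnt proteins require, rose by 0.75 (limma adjusted p 0.0329), and Wls, the carrier that escorts them to the surface, gave -0.13 without passing. The Porcn spot lies in row 367, among the last 24 rows.

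Of the 12 tested receptors and co-receptors out of 17, 3 rose and 1 fell. The Frizzled receptor Fzd6 fell from -0.66 and -0.70 in set 1 to -2.37 and -2.23 in set 2, a difference of -1.62 (limma adjusted p 0.00667). Lgr4, an R-spondin receptor related to Lgr5, rose by 0.68, Fzd4 by 0.54 and Fzd9 by 0.36. The co-receptor Lrp6 (0.15) and the receptor kinase Ryk (-0.20) did not pass.

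Of the 8 tested secreted or receptor-bound modulators, out of 19, 0 were called higher and 3 lower in set 2, against 7.53% higher and 11.5% lower over all genes; the direction of the list was not tested. Rspo3, an R-spondin that protects Frizzled from Rnf43 and Znrf3, gave -3.04 and -3.19 in set 1 and -5.56 and -6.49 in set 2, and is 1 of the 3. The last value, of the Cdh1 array, was not well above background, so the fitted difference of -2.91 (limma adjusted p 0.0215) rests on 1 measured array in set 2, and it was -0.90 with normexp. The secreted Frizzled-related proteins Sfrp4 and Frzb fell by 0.87 and 0.60. Dkk3 (-0.13) and Notum (0.01), an enzyme that strips the lipid from Wnt, did not pass.

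In the cytoplasm all 18 genes were tested, and 2 rose and 2 fell. Axin1, the constitutive counterpart of Axin2, rose by 0.65 and its second probe by 0.75 (limma adjusted p 0.0137 for the first). Axin1 and Axin2 thus moved in opposite directions between the same arrays. Amer1, an Apc-binding scaffold, rose by 0.86. Gsk3b, the kinase that phosphorylates beta-catenin, fell by 0.36. Btrc, part of the ligase that degrades it, fell by 0.54 on its brighter probe, whereas its other probe gave 0.19. Csnk1d (-0.09) and Fbxw11 (0.03) did not pass. A dimmer probe was called for Csnk1a1 (-0.31), whose brightest probe gave -0.10.

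Of 13 nuclear cofactors, all tested, 4 rose and 1 fell. Tcf7l1, a TCF factor that mostly represses, rose by 0.77 (limma adjusted p 0.0103), and its relative Tcf7l2 by 0.39 on its brightest of 4 probes, whose differences were 0.02 to 0.39. The TCF/LEF members Lef1 and Tcf7 themselves were not measurable. Bcl9l rose by 0.49, although its second probe gave -0.35. The corepressor Tle1 rose by 0.30 on its brightest of 3 probes, the only 1 called, whose differences were 0.12 to 0.30. The corepressor Tle3 fell by 0.39, with its other probe at -0.30 and not called. Pygo2 (0.03) and Tle5 (-0.13) did not pass. A dimmer probe was called for Tle2 (-1.22) and for Ctnnbip1 (0.61), whose brightest probes gave -0.12 and 0.13. That Tle2 probe was not well above background on all 4 arrays.

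Among 12 tested further beta-catenin targets, of 16, 0 were called higher and 4 lower in set 2, against 7.53% and 11.5% of all genes; the direction of the list was not tested. Of the called members, Axin2 was lower and Myc higher. Sox9, a transcription factor of stem and neural crest cells, fell from 0.43 and 0.20 to -2.36 and -2.39, a difference of -2.69 (limma adjusted p 0.00641), and its second probe gave -1.59. The AP-1 subunit Jun fell by 0.96, the urokinase receptor gene Plaur by 0.64 and Tnfrsf19 by 0.48, the last with a second probe at 0.02. Cd44 (-0.14) and Birc5 (-0.03) did not pass.

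Of 3 beta-catenin targets of melanocytes, Mitf fell by 0.39 (limma adjusted p 0.0399), from 5.90 and 6.02 to 5.59 and 5.56, on a probe in the last 24 rows with a further 2 probes also called. The pigment enzyme gene Dct gave -0.12 and did not pass. Around Myc, 2 of 7 tested partners of its network were called. Mxd3 rose by 0.76, with its second probe at 0.64 and also called. Mxd1 fell by 0.37, with a second probe at 0.02. Max (-0.22), the dimerisation partner of Myc, and Mnt (-0.24) did not pass. Of 12 Myc target genes 1 was called by its brightest probe, or 8.33% against 19% of all genes: the nucleolar protein gene Nop56 rose by 0.31 (limma adjusted p 0.0467). Npm1 (0.05) and Ldha (0.19) did not pass by their brightest probes, and the list's median was 0.0916 against -0.0306 over all genes. A dimmer probe was called for Ldha (0.44), for Ncl (-0.73) and for Srm, whose 3 probes gave 0.30 to 0.44.

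With the treatment as a replicate block 15 of the 28 calls were left (limma). The 13 lost were Fzd9, Lgr4, Frzb, Gsk3b, Btrc, Tcf7l2, Bcl9l, Tle1, Tle3, Tnfrsf19, Mitf, Mxd1 and Nop56. Leaving out any 1 array gave 0 to 3 calls among the list genes, and no filter on dim probes gave 0.

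**Figure D4:**
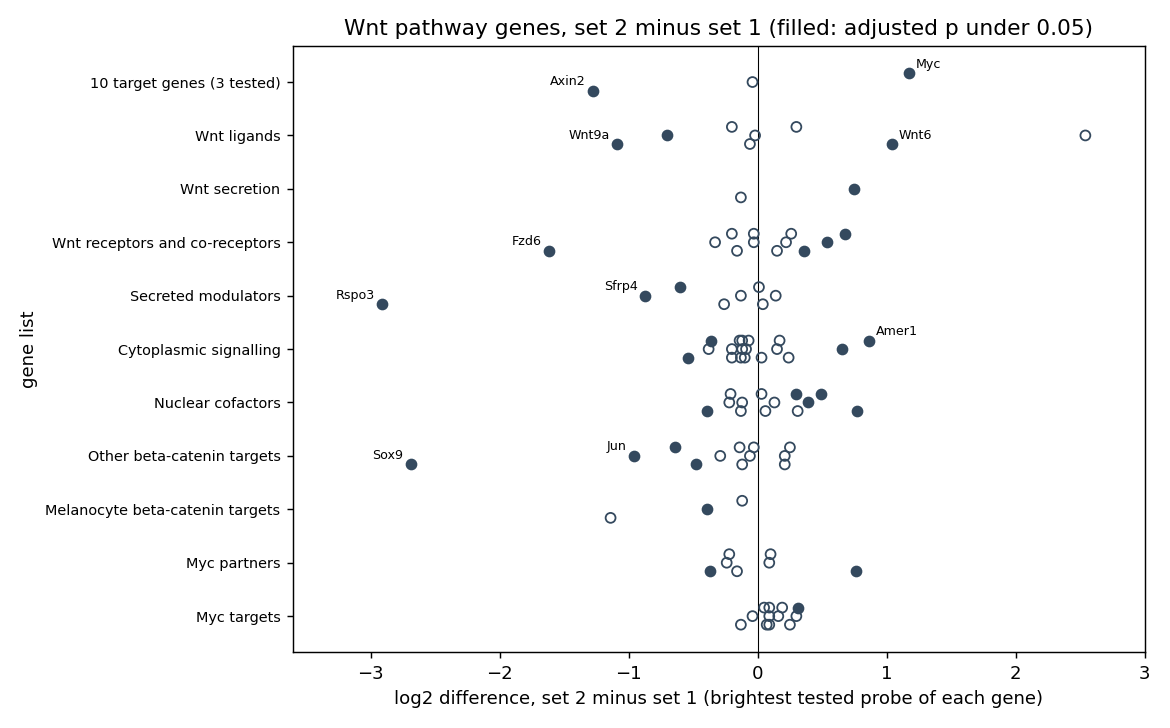
Set 2 minus set 1 (x axis, log2) for each tested gene of the 10 Wnt lists and for the 3 tested target genes (y axis, vertical offsets within a row only separate points). Filled points have a limma adjusted p under 0.05. Myc (1.17) lies to the right and Axin2 (-1.28) to the left, with Sox9 (-2.69) and Fzd6 (-1.62) further left. Rspo3 (-2.91) is placed by a fitted value with 1 of its set 2 arrays not well above background, and the outermost open points, Wnt10a among the ligands and Pou3f2 among the melanocyte targets, are fitted values of genes not well above background on either array of 1 set.

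Cell identity was read from marker genes. All 7 melanocyte markers were well above background on all 4 arrays, and their summed intensity relative to the 75th percentile was 1550 and 1520 in set 1 and 1320 in each array of set 2. Of these Tyr fell by 1.77 between the sets, Pmel by 0.42 and Mitf by 0.39 (limma adjusted p 0.00776, 0.028 and 0.0399). The pan-leukocyte gene Ptprc, the endothelial Cdh5, Kdr and Tek, the epithelial Epcam and the fibroblast Dcn and Lum were not well above background on any array, each by its brightest probe. The leukocyte integrin gene Itgam was well above background on all 4 arrays at log2 3.22 to 3.44 and made up most of the leukocyte sum, and the T cell gene Cd3e was at -1.08 to -0.78. The keratin genes Krt5 (-4.61 to -4.30) and Krt14 (-5.29 to -4.95) were also well above background on all 4. In total this held for 2 of 5 leukocyte, 3 of 6 epithelial, 1 of 4 endothelial and 2 of 4 fibroblast markers. The fibroblast sum was 0.138 in each array of set 1 and 0.0872 and 0.0817 in set 2, with Col1a1 lower by 1.22 and Pdgfra by 0.41. The leukocyte sum was 9.82 to 11.5, the epithelial 0.139 to 0.149 and the endothelial 0.0751 to 0.104. The fibroblast sum came mainly from Col1a1 and Pdgfra, and all cultures were of a single melanoma line, so it is no measure of fibroblast number. The part of these marker shifts in the differences of Axin2 and Myc was not tested. In bulk RNA fewer cells of a kind and less RNA per cell cannot be told apart. The Cdh1 gene itself had signals of -4.56 and -4.55 in set 1 and -4.38 and -4.45 in set 2, with a Cdh1 minus control difference of -0.03 (limma adjusted p 1).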

How the data were processed

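Processed intensities and flags were taken from the authors' deposited scanner files (Agilent Feature Extraction 12.0.3.1, per the submitters' processing notes). Per the file headers the arrays were 1-colour and the design build was mm9. The deposited processed intensity is the scanner software's own value for each spot, and no header states a scaling between arrays. The authors' table of all 4 arrays equals it times 1 factor per array.

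Log2 intensities were centred on the array's 75th percentile over non-control spots, outlier spots were dropped and spots of a probe averaged. A probe was tested where at least 1 group (or set) had it well above background on each of its 2 arrays, with limma 3.58.1 in R 4.3.3 (lmFit, eBayes, no block), with Benjamini-Hochberg adjustment over all tested probes and a threshold of 0.05. The Cdh1 fit was tested on simulated data with the same noise for every probe and no difference between sets. That simulation therefore does not show how the fit performs with the set difference of these arrays. The set comparison was not simulated. RefSeq accessions were named through GRCm38.p6, which covered 33767 of 56605 probes. Each gene was read by its brightest tested probe. Named were all 10 members, and per list up to 4 called genes and the 2 brightest. Tle1, Rspo3 and Ascl2 in the Cdh1 comparison, Wnt10a and Pou3f2 were named after their values were seen. So were Ncl, Srm, Csnk1a1, Tle2 and Ctnnbip1, each for a called dimmer probe.

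The titles' set numbers pair the cultures. Deviations from the group means of the arrays of a set correlated at 0.744 across 31155 probes. Set numbers come from separate cultures, whose number limits precision. Members and lists were chosen with earlier results of these data known. Alternatives were other scalings, normexp on the median spot signal, filters, priors, blocks, the authors' table and left-out arrays. Python 3.11.15 and pandas 2.3.3 read the files, and matplotlib 3.10.9 drew the figures.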

Additional observations from a re-analysis of the deposited data

Results flagged for a closer look

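The Cdh1 difference had opposite signs in the 2 sets for 4 of the 6 tested member probes, each resting on 1 array pair per set. For Myc, A_52_P108346 gave 0.09 in set 1 and -0.19 in set 2, and A_52_P278549 gave 0.18 and -0.20. For Znrf3, A_52_P234039 gave -0.29 and 0.06, and A_65_P09639 gave 0.03 and -0.02. The difference between the sets in the Cdh1 effect was not tested, since 4 arrays leave no residual for it.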

How the results depend on the processing

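Limma called 0 probes, 0 member genes and 0 list genes for Cdh1 against control under every alternative run, with 109 (normexp) to 2335 (replicate block) probes at an unadjusted p under 0.05. Between the sets, 5095 probes were called, 2 member genes and 28 list genes. These became 0, 0 and 0 without the filter on dim probes, 9032, 2 and 43 with normexp and quantile normalization, 11194, 2 and 58 with the trend and robust prior, and 2165, 2 and 15 with the treatment as a replicate block. With 1 array left out they were 0 to 409, 0 to 0 and 0 to 3, where the lone array of a set is assumed to vary like the other set. The remaining alternatives (quantile normalization, median centring, the authors' table, all 4 arrays, no last 24 rows) left these counts within 1.5 times, as did averaging a member's probes. The cause of these moves was not tested. The alternatives for the list genes were added after the data were seen. The replicate block changed no Cdh1 call.

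Of 531 single-gene values outside the left-out arrays, 9 reversed, none of them called. In the Cdh1 comparison Znrf3 A_65_P09639 was -0.04 with median centring and -0.01 with quantile normalization, and Myc A_52_P278549 was 0.01 in the authors' table. Between the sets Znrf3 A_65_P09639 was 0.01, Wnt1 0.03 and Birc5 0.02 in the authors' table, Birc5 0.01 and Dct 0.02 with quantile normalization, and Wnt1 0.00 with normexp. With 1 array left out, the Cdh1 difference ranged from -0.74 to 0.60 for Axin2, -0.71 to 0.60 and -0.65 to 0.63 for the Myc probes, -0.23 to 0.00 for A_52_P234039, -0.03 to 0.04 for A_65_P09639 and -2.19 to 1.11 for Rspo3, which has 1 array not well above background. In such fits the set difference enters the Cdh1 difference by construction. Between the sets the ranges that crossed 0 were -0.09 to 0.20 and -0.28 to 0.10 for 2 Znrf3 probes, -0.21 to 0.17 for Wnt1, -0.10 to 0.13 for Notum, -0.03 to 0.09 for Pygo2 and -0.06 to 0.01 for Birc5. Signal over background limits the 7 members without a measured probe.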

Other observations

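Ascl2, a beta-catenin target of intestinal stem cells, had the largest Cdh1 difference among the Wnt list genes. Its signals were -4.83 in control and -3.50 in Cdh1 of set 1, and -4.13 and -3.69 in set 2. Both treated arrays lay above both controls, by 1.34 in set 1 and 0.44 in set 2. The treated and control arrays were likewise separate, in either direction, in 18.1% of all tested probes. The mean of 0.89, with an SE of 0.28, was not called (limma adjusted p 1, and 0.692 with the set as a block), and it was 0.28 with normexp. Wnt10a was well above background in set 2 alone, at -4.64 and -4.82 against -6.46 and -8.07 in set 1. The set 2 mean was 2.18-fold above the mean of the lowest signals well above background on the set 1 arrays. That level is not a limit for each probe, since Tcf7 A_52_P244702 at an intensity of 12.4 was not well above background in control set 1. Wnt10a entered the test through set 2 alone, and it was not called (limma adjusted p 0.0662).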
